A study of Homo sapiens with 6 samples.

Results

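The genes followed here are 10 members of the transforming growth factor beta (TGF-β) family and its pathway, measured in hepatoma cells with reduced KIF11. They are the ligand genes TGFB1, TGFB2, TGFB3, INHBA, INHBB, INHBE, BMP2, BMP4 and GDF15, and SMAD7, which encodes an inhibitor of the pathway. They were taken from the table by name, with no cut on their measured values, although earlier results of these data were known when they were listed. All 10 were found among the 20030 genes of the count table. Of these, 8 had enough counts to be tested, and TGFB2 and INHBA did not.

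The cells were HepG2, a human hepatoma line. In 3 libraries (sh-KIF11) the cells carried a lentiviral short hairpin RNA against KIF11, a kinesin motor protein of the mitotic spindle, and in 3 libraries (sh-ctrl) they carried a control hairpin. All 6 libraries thus shared infection with a lentivirus, and no uninfected cells were included. The labels do not say whether the libraries came from separate cultures, so p-values measure only the spread between these libraries, which may be technical. The knockdown rests on 1 hairpin sequence in 1 cell line.

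TGF-β family ligands are secreted dimers. They bring together type I and type II receptor kinases, which phosphorylate SMAD proteins that enter the nucleus with SMAD4 and switch genes on or off. TGF-βs and activins signal mainly through SMAD2 and SMAD3, and bone morphogenetic proteins (BMPs) mainly through SMAD1, SMAD5 and SMAD9. Activins are dimers of inhibin beta subunits, and hepatocytes are known for making the beta C and beta E subunits. Ligands of this family are also among the factors that senescent cells can secrete, and the study asked about senescence after loss of KIF11. By qPCR it reported higher levels of such factors in sh-KIF11 HepG2 cells, TGF-β among them.

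Libraries held between 18167773 and 19583282 counts. Levels are given as CPM, counts scaled to a common library size adjusted by edgeR's TMM factors, which were 0.922 to 0.926 in sh-ctrl and 1.08 to 1.09 in sh-KIF11. The 20 most abundant genes took 9.35% to 9.68% of the counts in sh-ctrl and 6.91% to 7.04% in sh-KIF11. Changes are log2 fold changes of sh-KIF11 over sh-ctrl with their standard errors (SE). The test was the quasi-likelihood test of edgeR, adjusted after Benjamini and Hochberg over all 12369 tested genes, and a gene is called when its adjusted p is under 0.05. On this scale the median change of all tested genes was 0.00, while scaling by library totals alone put that median at 0.24, so a change is read against the typical tested gene. In bulk RNA, fewer cells making a transcript and less of it per cell cannot be told apart. The labelled cell type matched its markers, since ALB, AFP, APOA1 and the other 7 hepatocyte genes on the list were all detected, although their summed level was lower in sh-KIF11 (14440 to 15580 CPM) than in sh-ctrl (32290 to 33850 CPM) and 9 of the 10 were called lower.

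KIF11 itself checked the labels. Its level was 111, 116 and 121 CPM in sh-ctrl and 72.2, 71.4 and 62.9 CPM in sh-KIF11. The groups did not overlap, and the log2 fold change was -0.75 (SE 0.06, edgeR adjusted p = 4.22e-15). The hairpin's target and guide strands are shown because every comparison here starts from them. Capitals mark the seed of the guide, its bases 2 to 8, and the bases of the target that pair with it.

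Target strand of sh-KIF11: gcgcccattcaatAGTAGAAt

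Guide strand of sh-KIF11: aTTCTACTattgaatgggcgc

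The target lies in exon 2 of 22, within the coding sequence of KIF11, at chr10:92606294-92606314 on the plus strand (GRCh38, GENCODE 29). No transcript of the 10 genes held the whole target.

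By level per transcript length, GDF15 led the 10 genes in both groups. FPKM, the authors' value per unit of transcript length and of sequencing depth, is used for this order because raw counts grow with transcript length. In sh-ctrl the order was GDF15 (161 ± 7.71 FPKM, SD, n = 3), BMP4 (24.9 ± 1.23), TGFB1 (19.6 ± 0.73), INHBE (9.20 ± 0.394), SMAD7 (6.39 ± 0.869) and INHBB (0.394 ± 0.0823), each library of one gene above every library of the next. TGFB3 (0.139 ± 0.0538 FPKM) and BMP2 (0.0965 ± 0.0715 FPKM) came after INHBB and overlapped each other. In sh-KIF11 the order was GDF15 (194 ± 9.10 FPKM), BMP4 (41.1 ± 1.05), TGFB1 (24.7 ± 1.96), SMAD7 (13.0 ± 0.81), INHBE (4.54 ± 0.643), INHBB (2.72 ± 0.186), BMP2 (0.354 ± 0.0982) and TGFB3 (0.229 ± 0.0272), again without overlap between neighbours. SMAD7 and INHBE thus exchanged places. BMP2 and TGFB3, which overlapped in sh-ctrl, were separate in sh-KIF11. TGFB2 and INHBA stayed below 0.06 FPKM in every library.

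**Figure D1:**
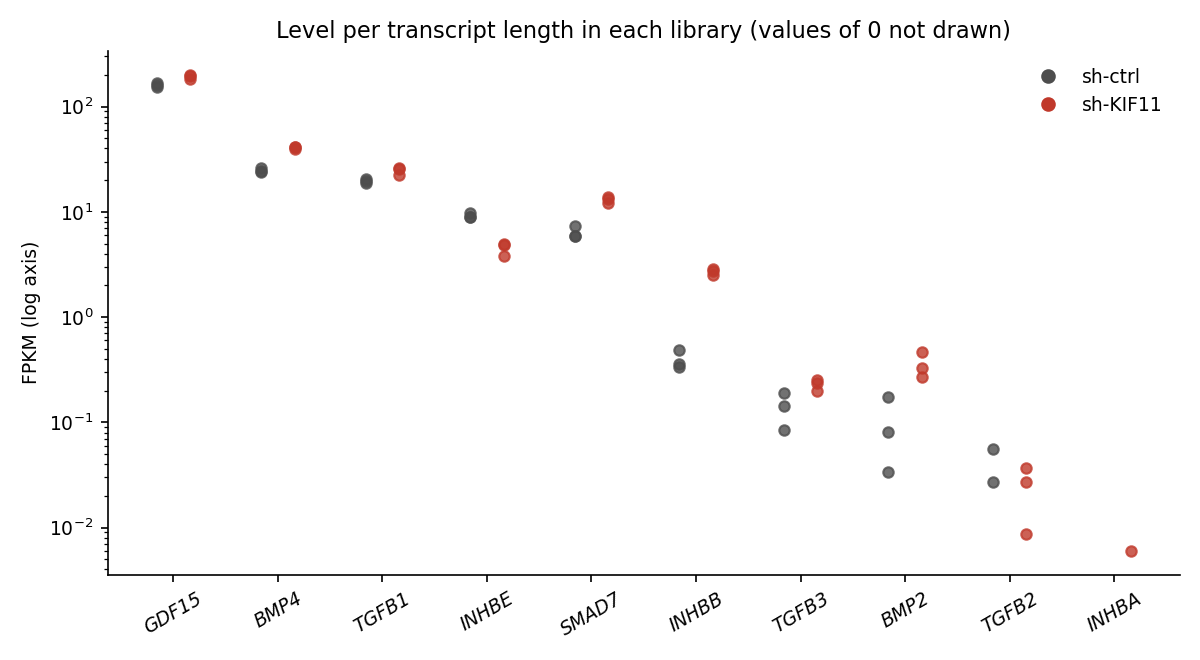
FPKM of each of the 10 genes in each library on a log axis, with genes ordered by their sh-ctrl level, sh-ctrl in grey and sh-KIF11 in red. GDF15 lies between 154 and 202 FPKM in all 6 libraries, and INHBE and SMAD7 exchange places between the groups.

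Of the summed FPKM of the 9 ligand genes, GDF15 made up 74.7% ± 0.253 (SD, n = 3) in sh-ctrl and 72.4% ± 0.693 (SD, n = 3) in sh-KIF11. The share of BMP4 was 11.6% ± 0.171 and 15.4% ± 0.77, that of TGFB1 9.11% ± 0.438 and 9.23% ± 0.392, that of INHBE 4.28% ± 0.063 and 1.70% ± 0.26, and that of INHBB 0.183% ± 0.0305 and 1.02% ± 0.109. These are shares of transcript, not of protein.

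Of the 8 tested genes, 5 were called, with INHBB, BMP2, BMP4 and SMAD7 higher in sh-KIF11 and INHBE lower. TGFB1, TGFB3 and GDF15 were not called. Over all tested genes 69.1% were called, 34.4% higher and 34.7% lower, so a call by itself was common in these libraries. For these 5 genes no library of one group fell within the range of the other, against 71.2% of all tested genes. INHBB, INHBE and BMP2 were called and changed at least 2-fold, which 11.7% of all tested genes did. BMP2 and TGFB3 passed the low-count filter only through sh-KIF11, where their counts were higher. Of the 6 that passed in both groups 4 were called and had groups that did not overlap, INHBB, BMP4 and SMAD7 higher and INHBE lower, and 2 of these changed at least 2-fold. The median log2 fold change of the 6 was 0.31. The middle 50% of all tested genes lay between -0.31 and 0.36.

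**Figure D2:**
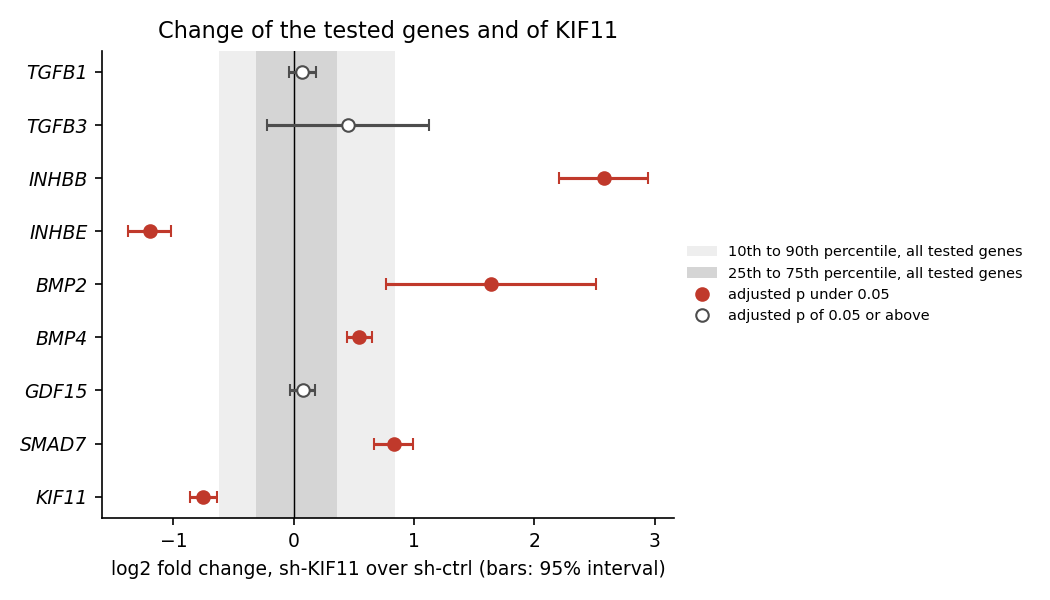
Log2 fold change of sh-KIF11 over sh-ctrl with its 95% interval for the 8 tested genes and KIF11, filled where the adjusted p was under 0.05. Grey bands hold the middle 50% and the middle 80% of all tested genes, and INHBB (2.58), BMP2 (1.64), INHBE (-1.20) and KIF11 (-0.75) have their points outside both bands.

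INHBB, the inhibin beta B subunit, which pairs with itself to form activin B, showed the largest change of the tested members. It stood at 1.85, 1.27 and 1.36 CPM in sh-ctrl and at 9.12, 9.42 and 8.32 CPM in sh-KIF11. Every sh-KIF11 library was above every sh-ctrl library. The rise was 5.96-fold (95% interval 4.61 to 7.71), a log2 fold change of 2.58 (SE 0.18, edgeR adjusted p = 4.96e-16). The counts behind it were 23 to 33 in sh-ctrl and 164 to 195 in sh-KIF11, and its level in sh-KIF11 was still below that of INHBE. INHBB lies at chr2:120346143-120351808 on the plus strand (GRCh38, GENCODE 29), with 2 exons and no overlapping gene. Its promoter is shown as that of the member that rose most, as the 250 bases before the RefSeq start (chr2:120345886-120346135, plus strand, GRCh38.p14).

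INHBB promoter: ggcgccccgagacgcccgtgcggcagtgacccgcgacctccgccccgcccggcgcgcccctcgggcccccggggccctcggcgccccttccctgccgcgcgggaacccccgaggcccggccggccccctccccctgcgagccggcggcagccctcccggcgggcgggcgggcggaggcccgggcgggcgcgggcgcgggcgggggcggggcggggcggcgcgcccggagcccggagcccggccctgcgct

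The stretch is 89.6% G and C, and only 0.0285% of the 35116 RefSeq windows of this length were as rich, against a median of 58%.

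INHBE, the inhibin beta E subunit, which forms activin E and is known as a product of hepatocytes, went the other way. Its level was 32.6, 31.4 and 30.6 CPM in sh-ctrl and 11.6, 15.0 and 14.6 CPM in sh-KIF11. No sh-KIF11 library reached the sh-ctrl range. The log2 fold change was -1.20 (SE 0.09, 95% interval -1.38 to -1.02, edgeR adjusted p = 1.77e-15), which is 2.29-fold lower. The ratio of INHBB to INHBE counts within a library, which does not depend on how libraries are scaled, was 0.0567, 0.0406 and 0.0445 in the control and 0.785, 0.627 and 0.569 after the knockdown. This and the other count ratios given here were chosen after their values were seen and are given without a test.

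INHBE lies at chr12:57452323-57459280 on the plus strand, 1494 bases after the end of INHBC, the beta C subunit gene, which is read in the same direction. INHBC fell too, from 8.92, 9.20 and 11.0 CPM to 4.04, 4.30 and 3.60 CPM, a log2 fold change of -1.28 (SE 0.14, edgeR adjusted p = 2.47e-10). The count ratio of INHBE to INHBC was 2.78 to 3.66 in sh-ctrl and 2.88 to 4.06 in sh-KIF11, and the groups overlapped. INHA, the alpha subunit that turns a beta subunit into an inhibin, was low and lower still in sh-KIF11, with 20 to 24 counts per library in sh-ctrl and 3 or 4 in sh-KIF11 (log2 fold change -2.72, SE 0.45, edgeR adjusted p = 1.48e-06). INHA was named after its values were seen, and it passed the low-count filter only through sh-ctrl, where its counts were higher. INHBA, the beta A subunit of activin A, had 1 count in all 6 libraries together. The upper limit that a count of 0 leaves is 3 counts, between 0.145 and 0.178 CPM by library for counting error only, so INHBA was not detectable at this depth in either group.

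Among the 10 genes only INHBE carries the site of the hairpin's seed in its 3′ UTR. It is shown with the bases around it, the site in capitals (chr12:57457618-57457624, plus strand, GRCh38, base 770 of the 1160 bases of that UTR in transcript INHBE-201).

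INHBE seed site: tttgtattcttAGTAGAAacgaggtttcaa

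INHBC and INHA hold no such site. Of 12197 tested genes with an annotated coding transcript, 1825 (15%) hold the site in a 3′ UTR. Their median log2 fold change was 0.16, with 866 called higher and 423 (23.2%) called lower, whereas the 10372 without it had a median of -0.02, with 3342 called higher and 3842 (37%) called lower. A gene with no annotated 3′ UTR counted as without the site. This comparison took no account of 3′ UTR length, and the part of the site in the level of INHBE was not tested.

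BMP4, a ligand of the BMP receptors, was the second most abundant of the 9 ligands per transcript length. It was at 110, 104 and 101 CPM in sh-ctrl and at 150, 155 and 155 CPM in sh-KIF11. The groups were far apart for the spread within them. The change was 1.46-fold (95% interval 1.36 to 1.57), a log2 fold change of 0.54 (SE 0.05, edgeR adjusted p = 2.05e-12). The gene lies at chr14:53949736-53958761 on the minus strand and overlaps no other gene. The count ratio of BMP4 to TGFB1 was 1.11 to 1.17 in sh-ctrl and 1.51 to 1.75 in sh-KIF11, again without overlap and free of library scaling.

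BMP2, the other BMP on the list, was at or near the detection limit in sh-ctrl, with 6, 12 and 2 counts against 18, 22 and 32 in sh-KIF11. In CPM these were 0.336, 0.665 and 0.119 against 0.897, 1.06 and 1.62. Every sh-KIF11 library was above every sh-ctrl library, and the log2 fold change was 1.64 with a wide interval of 0.77 to 2.51 (SE 0.43, edgeR adjusted p = 0.000951). Without sh-ctrl replicate 2, its highest sh-ctrl library, the value was 2.34, and without sh-ctrl replicate 3, the lowest, it was 1.24. With a filter of at least 10 counts in every library BMP2 was not tested at all. BMP2 lies at chr20:6767664-6780280 on the plus strand.

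The 3 TGF-β ligand genes were not called. The study reported higher TGF-β by qPCR, a different measure that was not compared here. TGFB1 was at 93.6, 93.5 and 87.3 CPM in sh-ctrl and 98.9, 88.6 and 101 CPM in sh-KIF11, so the second sh-KIF11 library lay within the sh-ctrl range. Its log2 fold change was 0.07 (SE 0.06, 95% interval -0.04 to 0.18, edgeR adjusted p = 0.263). The interval bounds any rise at 1.14-fold on this scale. That answer depended on the scaling, and TGFB1 was called higher with upper-quartile factors (log2 fold change 0.15), library totals alone (0.30) and the FPKM table (0.32 on log2(FPKM + 1)). Raw counts of TGFB1 were 1474 to 1688 in sh-ctrl and 1834 to 1989 in sh-KIF11 and did not overlap, while total counts overlapped between the groups and the share taken by the 20 most abundant genes did not. TGFB1 lies at chr19:41301587-41353911 on the minus strand and overlaps 4 coding genes on the opposite strand, HNRNPUL1, CCDC97, TMEM91 and AC011462.1. The library kit marks strand, but whether the counting used it is not given in the sources used here, so reads in the overlaps may not be separable.

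The counts of TGFB3 were 26, 10 and 15 in the control and 22, 31 and 27 after the knockdown, or 1.46, 0.554 and 0.889 CPM against 1.10, 1.50 and 1.37 CPM. The first sh-ctrl library lay among those of sh-KIF11. Its log2 fold change of 0.45 had an interval from -0.22 to 1.12 (SE 0.33, edgeR adjusted p = 0.231), or 0.856-fold to 2.18-fold. Without that library the value was 0.88 and the adjusted p 0.0489 (edgeR). TGFB3 overlaps IFT43 and TGFB3-AS1 on the opposite strand. For TGFB2 the counts were 6, 3 and 0 against 3, 1 and 4, 17 in all, and was too low to test.

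GDF15, a stress-induced member of the family that signals through the receptor GFRAL in the brainstem, was the most abundant member and lay above 96.8% of the tested genes by mean CPM. Its level was 390, 371 and 351 CPM in sh-ctrl and 400, 370 and 402 CPM in sh-KIF11. The second sh-KIF11 library fell inside the sh-ctrl range. The log2 fold change was 0.07 (SE 0.05, 95% interval -0.03 to 0.17, edgeR adjusted p = 0.187), which bounds a rise at 1.13-fold. As with TGFB1, the call changed with the scaling. The value was 0.15 with upper-quartile factors, 0.30 with library totals and 0.27 on log2(FPKM + 1), all 3 called. The count ratio of TGFB1 to GDF15 was 0.240 to 0.252 in sh-ctrl and 0.240 to 0.251 in sh-KIF11, so the pair kept nearly the same proportion whatever the scaling. GDF15 lies at chr19:18374731-18389176 on the plus strand and holds the microRNA gene MIR3189.

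SMAD7, the inhibitory SMAD that binds type I receptors and that TGF-β itself is known to induce, rose from 22.4, 22.3 and 26.8 CPM to 39.4, 43.8 and 43.7 CPM. The groups were clearly separate. The change was 1.78-fold (95% interval 1.59 to 1.99), a log2 fold change of 0.83 (SE 0.08, edgeR adjusted p = 3.74e-12). SMAD7 lies at chr18:48919853-48952052 on the minus strand and overlaps no other gene.

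**Figure D3:**
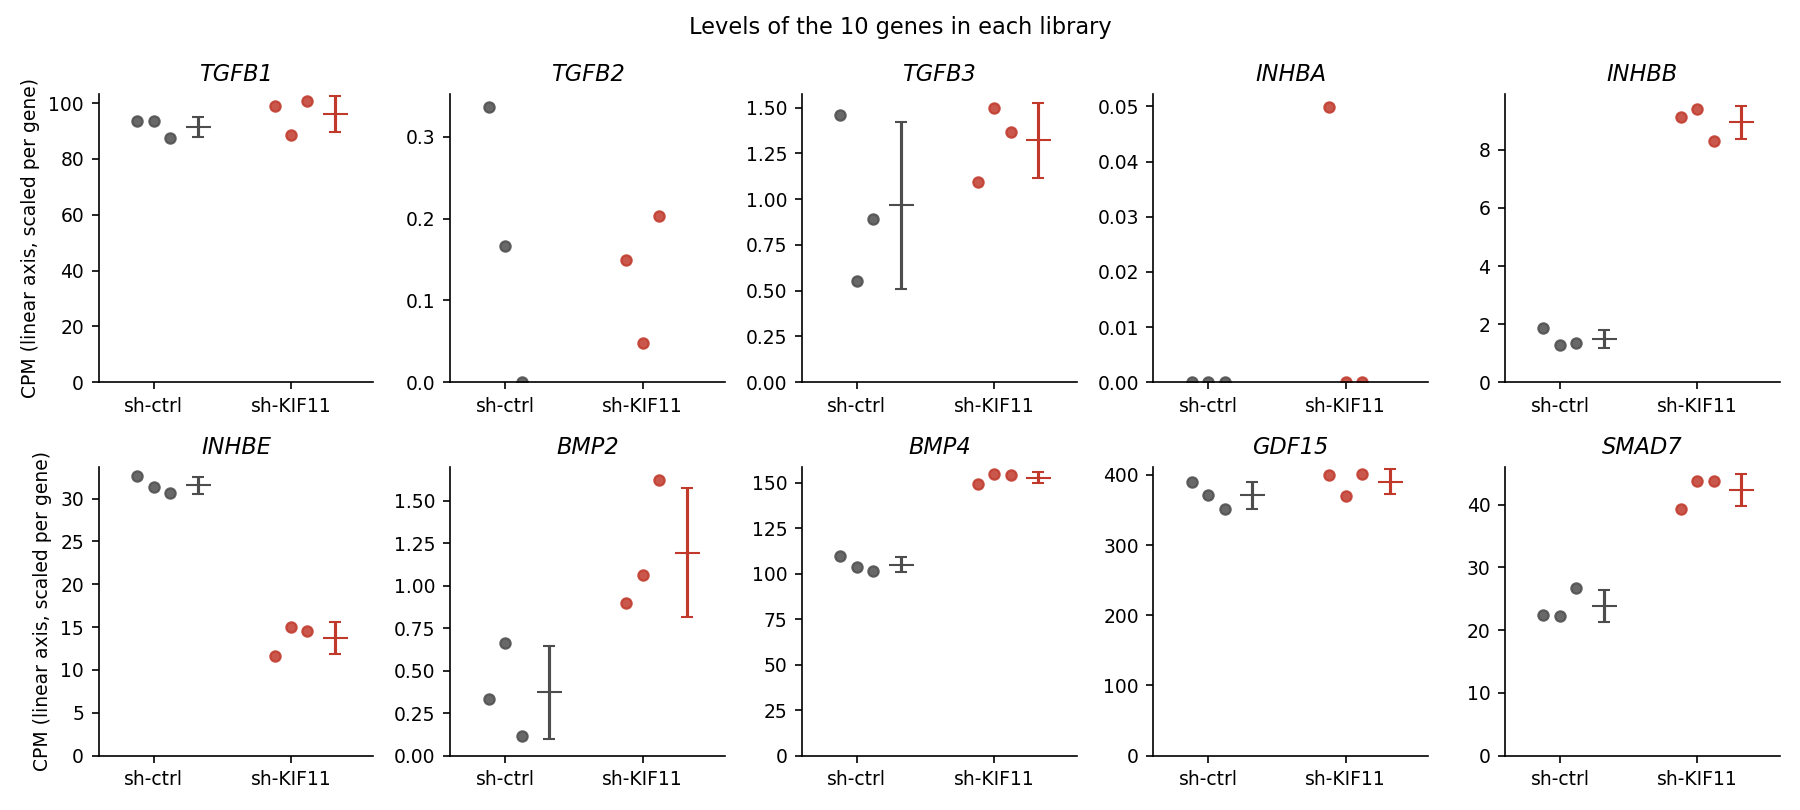
CPM of each of the 10 genes in each library, on a linear axis from 0 scaled per gene, with the mean and SD of each group of 3 beside the points (none drawn for TGFB2 and INHBA, which were too low to test). The libraries of the groups are separate for INHBB, INHBE, BMP2, BMP4 and SMAD7 and overlap for TGFB1, TGFB3 and GDF15.

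The promoters of BMP4 and SMAD7 are shown with that of INHBB because these 3 genes were called higher and passed the low-count filter in both groups. RefSeq gives 3 starts each for BMP4 and SMAD7. For BMP4 the only start whose window held a searched motif is shown (chr14:53953396-53953645, minus strand, GRCh38.p14), with the motif in capitals, and for SMAD7 the most upstream start (chr18:48950966-48951215, minus strand).

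BMP4 promoter: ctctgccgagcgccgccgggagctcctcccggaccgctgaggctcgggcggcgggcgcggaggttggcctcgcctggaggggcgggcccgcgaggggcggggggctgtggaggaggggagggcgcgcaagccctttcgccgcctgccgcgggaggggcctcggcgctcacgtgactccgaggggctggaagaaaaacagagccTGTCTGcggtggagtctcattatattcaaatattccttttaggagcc

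SMAD7 promoter: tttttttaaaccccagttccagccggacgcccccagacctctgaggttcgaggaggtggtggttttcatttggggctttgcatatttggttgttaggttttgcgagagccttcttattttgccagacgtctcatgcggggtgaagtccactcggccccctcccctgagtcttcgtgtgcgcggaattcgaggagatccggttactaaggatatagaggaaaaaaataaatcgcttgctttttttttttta

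RefSeq windows of 250 bases before and 50 after each start were given for 8 of the 10 genes (13 windows), with none for INHBE and BMP2. They were searched on both strands for the SMAD-binding core CAGACA, the palindromic SMAD box GTCTAGAC, the cAMP response element TGACGTCA, the AP-1 site TGANTCA and the composite site of ATF4 and CHOP, TGATGNAA. The SMAD-binding core was found in 3 of the 13 windows, 1 each of BMP4, TGFB2 and INHBA, and in 16.9% of all 35116 windows. In BMP4 it reads TGTCTG and begins 47 bases before the start. The other 4 motifs were in none of the 13 windows and in 0.202%, 1.85%, 7.71% and 3.62% of all windows, in the order just given. A match of letters is not a measured binding site.

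The rest of the pathway was examined through 11 lists of genes grouped by role, the last of them targets of the stress factors ATF4 and CHOP, with 119 genes in all, of which 76 were tested, 38 called higher and 20 called lower. The lists share some genes, and their counts stand beside the 34.4% of tested genes called higher and the 34.7% called lower. Of the 76, 71 passed the filter in both groups, 35 of them higher and 19 lower, with a median log2 fold change of 0.10.

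Among 24 other ligand genes only 7 were tested, with 1 higher and 3 lower and a median log2 fold change of -0.42. INHA passed the filter only through sh-ctrl, and another gene, not called, through a mix of libraries. Of the 5 that passed in both groups 1 was higher and 2 were lower, with a median of -0.06. GDF11 rose from 2.13, 1.22 and 1.96 CPM to 5.33, 5.51 and 5.37 CPM, a log2 fold change of 1.61 (SE 0.21, edgeR adjusted p = 5.39e-09). GDF7, a BMP-type ligand, was called lower at -0.42 (SE 0.10, edgeR adjusted p = 0.000249), but not with library totals alone. INHBC and INHA, given above, were the others.

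Of 7 type I receptor genes 4 were tested, 2 called higher and none lower, with a median of 0.35. TGFBR1, which serves TGF-β, went from 21.4, 20.8 and 24.4 CPM to 37.7, 35.0 and 34.5 CPM, a log2 fold change of 0.69 (SE 0.08, edgeR adjusted p = 4.71e-10). ACVR1, which serves BMPs, rose by 0.66 (SE 0.08, edgeR adjusted p = 1.76e-09). BMPR1A, another BMP receptor, had a log2 fold change of 0.04 (SE 0.07, edgeR adjusted p = 0.622), and ACVR1B, an activin receptor, one of -0.13 (SE 0.08, edgeR adjusted p = 0.127). The sign of both flipped under other settings. BMPR1A was called higher with library totals alone (0.27), with the FPKM table (0.19 on log2(FPKM + 1)) and without sh-ctrl replicate 3 (0.13), and turned to -0.02 without sh-ctrl replicate 2. ACVR1B was called under no alternative.

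All 4 tested type II receptors were called, 3 higher and 1 lower, with a median of 0.36. BMPR2, the main BMP type II receptor, rose 2.04-fold, from 44.1, 40.4 and 47.6 CPM to 90.6, 94.0 and 85.4 CPM (log2 fold change 1.03, SE 0.06, edgeR adjusted p = 3.71e-18). TGFBR2, the type II receptor of TGF-β, was the most abundant receptor and rose by 0.33 (SE 0.05), from 401 to 432 CPM to 513 to 523 CPM. The pair of activin type II receptors parted. ACVR2A rose by 0.40 (SE 0.09, edgeR adjusted p = 0.000194) and ACVR2B fell by 0.76 on the log2 scale (SE 0.08, edgeR adjusted p = 5.51e-11). Of 7 co-receptor genes 5 were tested, 1 called higher and 2 lower, with a median of -0.20. TGFBR3 (betaglycan), which presents TGF-β and inhibins to the receptors, fell by 0.90 on the log2 scale (SE 0.05, edgeR adjusted p = 2.6e-19), and ENG (endoglin) fell by 0.75 (SE 0.11, edgeR adjusted p = 4.75e-08). RGMA, a BMP co-receptor named after its values were seen, was called higher (3.03, SE 0.56, edgeR adjusted p = 7.83e-06), but its mean was 0.114 CPM in sh-ctrl and 0.98 CPM in sh-KIF11 and it passed the filter only through sh-KIF11. RGMB and TDGF1 were not called. Among the 4 co-receptors that passed the filter in both groups, none was higher and 2 were lower, with a median of -0.47.

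All 6 signal-carrying SMAD genes were tested, with 4 higher and none lower and a median of 0.37. SMAD9, of the BMP branch, rose from 8.63, 8.42 and 8.12 CPM to 21.2, 19.2 and 18.3 CPM, a log2 fold change of 1.22 (SE 0.10, edgeR adjusted p = 7.01e-14). SMAD1 and SMAD5, of the same branch, rose by 0.41 and 0.33. SMAD3, of the TGF-β and activin branch, rose by 0.46 (SE 0.06, edgeR adjusted p = 1.8e-09), while its partner SMAD2 had a value of 0.05 and the shared SMAD4 one of 0.08, neither called. SMAD2 and SMAD4 were called higher with library totals alone and with the FPKM table, SMAD4 also with upper-quartile factors, and SMAD2 turned to -0.01 without sh-ctrl replicate 1.

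Of 14 genes for latency and activation of TGF-β, 10 were tested, 7 called higher and 2 lower, with a median log2 fold change of 0.84. Without LTBP1, which passed the filter only through sh-KIF11, 6 were higher and 2 lower and the median was 0.63. LTBP1, which holds latent TGF-β in the matrix, had counts of 1, 5 and 2 in the control and of 56, 64 and 56 after the knockdown. In CPM that was 0.0561, 0.277 and 0.119 against 2.79, 3.09 and 2.84, a log2 fold change of 4.20 (SE 0.40, edgeR adjusted p = 3.19e-12) whose size rests on very few sh-ctrl counts and was 4.97 without sh-ctrl replicate 2. LTBP2, a matrix protein of the same family that does not bind latent TGF-β, rose by 1.82 (SE 0.16), from 2.30 to 3.27 CPM to 9.18 to 9.77 CPM. LTBP3 and PCSK6, a proprotein convertase, were called lower at -0.42 and -0.37. The 14 extracellular antagonists had 4 tested and 3 higher, with a median of 0.58, led by FSTL3, which binds activins (0.83, SE 0.06, edgeR adjusted p = 2.51e-15), and TWSG1, which binds BMPs (0.67, SE 0.12, edgeR adjusted p = 2.43e-06).

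The 10 intracellular inhibitors other than SMAD7 went both ways, 4 higher and 2 lower of 9 tested, with a median of 0.05. SKIL, a SMAD corepressor that TGF-β is known to induce, rose from 15.4, 13.8 and 16.6 CPM to 35.2, 34.4 and 35.2 CPM (log2 fold change 1.19, SE 0.08, edgeR adjusted p = 2.32e-16). SMURF2, a ubiquitin ligase that SMAD7 brings to the receptor, rose by 0.99 (SE 0.07, edgeR adjusted p = 3.36e-15). STRAP, a receptor-binding partner of SMAD7, fell by 1.25 on the log2 scale (SE 0.05, edgeR adjusted p = 1.9e-23), and the corepressor SKI fell by 0.36.

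Of 16 known targets of TGF-β and activin, 12 were tested, 4 higher and 6 lower, with a median log2 fold change of -0.10. CDKN2B, which encodes the cell cycle inhibitor p15, rose from 2.19, 1.11 and 1.90 CPM to 10.8, 13.7 and 13.3 CPM, a log2 fold change of 2.86 (SE 0.17, edgeR adjusted p = 2.51e-18), and LTBP2 was the other leading rise. TGFBI, a matrix protein, fell by 0.89 on the log2 scale (SE 0.05, edgeR adjusted p = 1.42e-19) and BHLHE40, a transcription factor, by 1.28 (SE 0.07, edgeR adjusted p = 1.46e-19). FN1, which encodes fibronectin and was named after its values were seen, was called lower at -0.76.

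Of 11 BMP targets 10 were tested, 8 called higher and none lower, with a median of 0.54. Without ATOH8, which passed the filter only through sh-KIF11, 7 of 9 were higher and the median was 0.29, within the middle 50% of all tested genes. ATOH8, a transcription factor that BMPs induce in liver, rose from 0.505, 0.831 and 0.711 CPM to 8.57, 9.42 and 9.18 CPM, a log2 fold change of 3.72 (SE 0.21, edgeR adjusted p = 4.89e-19). SMAD9 was next at 1.22. ID1, ID2 and ID3, inhibitors of differentiation named after their values were seen, were called higher at 0.14, 0.29 and 0.79. HAMP, which encodes the iron hormone hepcidin and was also named afterwards, was at 23.7 CPM in sh-ctrl and 24.3 CPM in sh-KIF11 and was not called (edgeR adjusted p = 0.717). Whether the difference between the target lists is more than that between other lists was not tested.

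**Figure D4:**
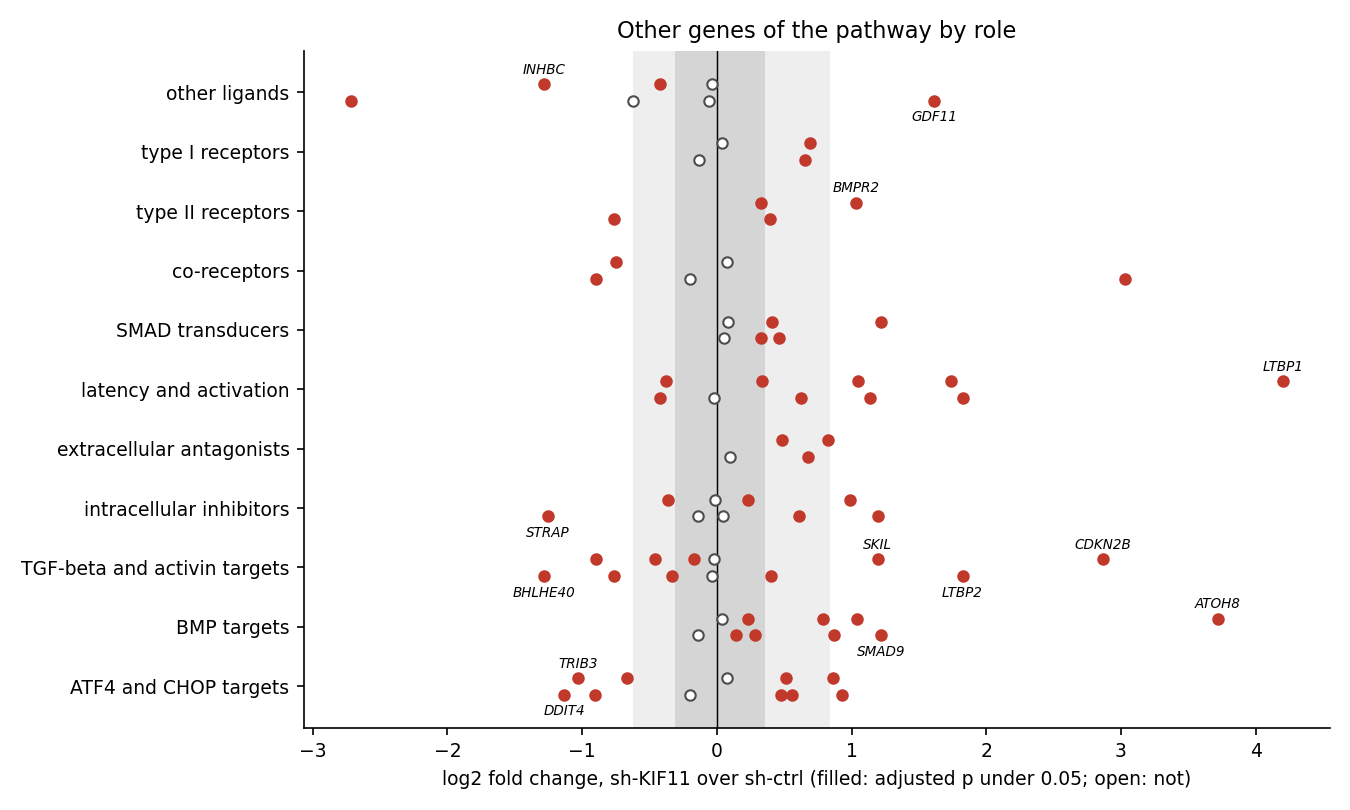
Log2 fold change of sh-KIF11 over sh-ctrl for each tested gene of the 11 lists, filled where the adjusted p was under 0.05, with genes chosen by the naming rule labelled once where the change exceeded 1 in size. The grey bands hold the middle 50% and 80% of all tested genes, and LTBP1 (4.20) and ATOH8 (3.72) lie farthest to the right.

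Markers of other liver cells were in part absent and in part detected. Of 7 macrophage or leukocyte markers PTPRC, CSF1R and CD163 had 3 counts or fewer in every library, and the summed level of the 7, nearly all of it LYZ, was 2482 to 2977 CPM in sh-ctrl and 505 to 637 CPM in sh-KIF11. LYZ, CD68 and CD14 were tested and called lower, CD68 at 82.3 CPM in sh-ctrl and 44.2 CPM in sh-KIF11. Of 6 endothelial markers 4 were at 3 counts or fewer, CDH5, KDR, TEK and CLEC4M, and the sum was 3.16 to 3.56 and 4.69 to 4.98 CPM. VWF was called higher (log2 fold change 1.01) and PECAM1 was not called. Of 8 stellate cell or fibroblast markers COL3A1, DCN, LUM and THY1 were at 3 counts or fewer, and the sum, nearly all ACTA2, was 93.4 to 97.6 and 186 to 198 CPM. ACTA2 was called higher (log2 fold change 1.03) and PDGFRB lower (-1.16).

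**Figure D5:**
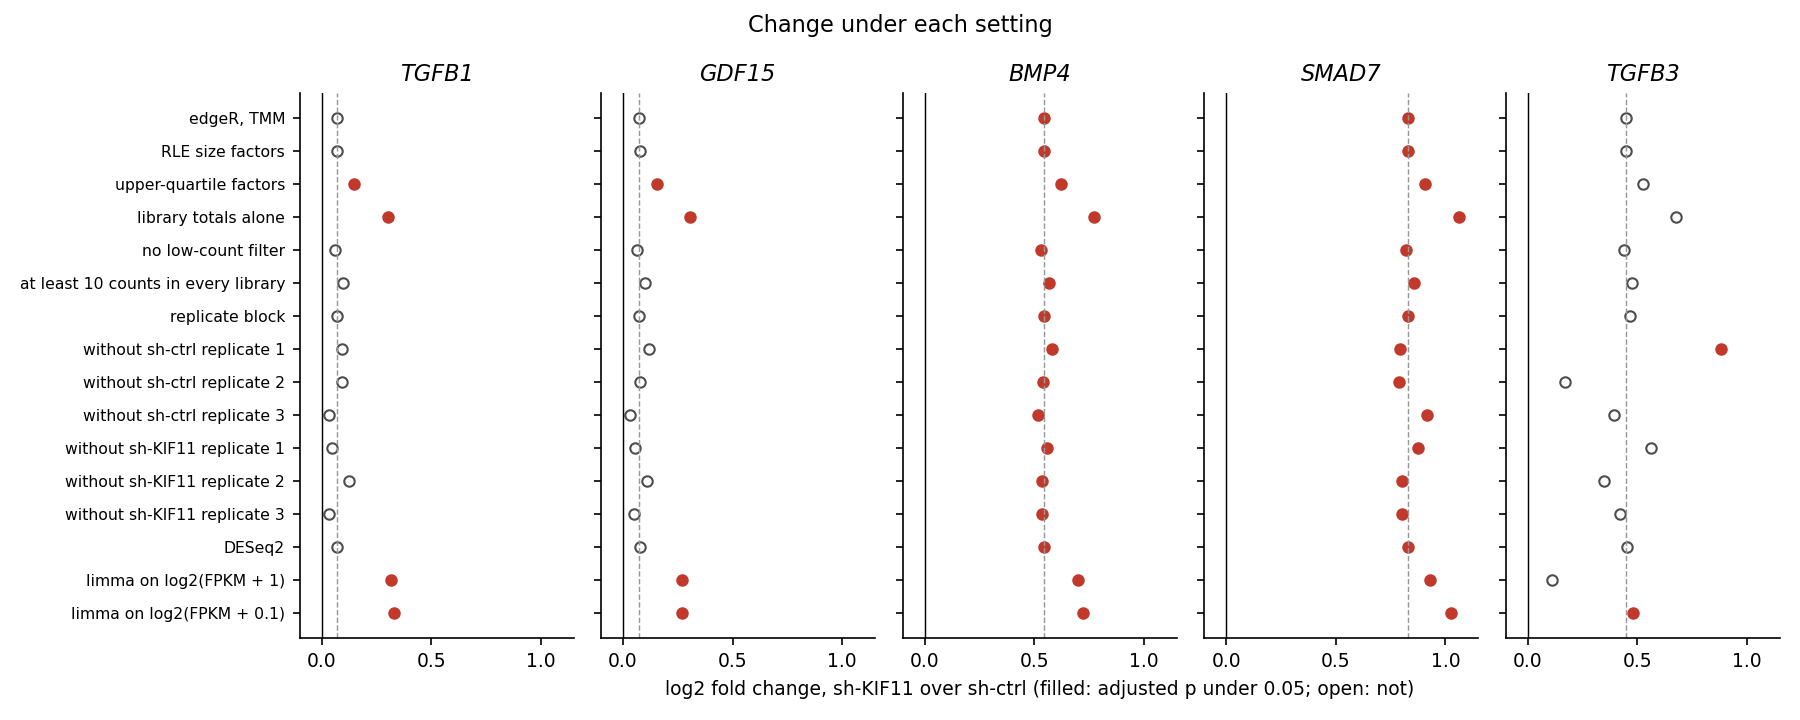
Log2 fold change of TGFB1, GDF15, BMP4, SMAD7 and TGFB3 under each setting, with the dashed line at the edgeR value with TMM factors and points filled where the adjusted p was under 0.05. BMP4 and SMAD7 were called under every setting shown, whereas TGFB1 and GDF15 were called only with upper-quartile factors, library totals alone and the FPKM table.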

How the data were processed

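HepG2 libraries of polyadenylated RNA, 3 with a control hairpin and 3 with a hairpin against KIF11, were made with a stranded kit. Reads were trimmed with Trimmomatic by the authors. The submitters' processing notes also list bcl2fastq 1.8.4, HISAT2 2.1.0, Cufflinks 2.2.1 and HTSeq 0.9.1, DESeq and the build GRCh38, without the role of each, and the annotation is not given in the sources used here. The deposited tables hold unnormalized counts by gene and, separately, FPKM values that the authors scaled to transcript length and library size. All 6 sample columns were mapped by name, and the columns named only shRNA were taken as sh-KIF11, since no other hairpin besides the control is labelled.

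The count table was fitted with edgeR 4.0.16 in R 4.3.3 (filterByExpr, TMM, quasi-likelihood test with the group as its only term), which kept 12369 genes and left out 7661. The call threshold was a Benjamini-Hochberg adjusted p of 0.05. Intervals are 95%. Within a group, chi-square per degree of freedom between libraries was 2.67 to 8.11, above sampling noise, and between groups it was 84.0 to 102. Each library was treated as 1 replicate, although this spread does not show whether the libraries came from separate cultures. The alternatives were RLE and upper-quartile factors, library totals alone, the replicate block, leaving out single libraries, no filter or a filter of 10 counts in all libraries, DESeq2 1.42.0, limma 3.58.1 on log2(FPKM + 1) and log2(FPKM + 0.1), and stricter thresholds. The procedures were tested on simulated counts with 199 changed genes among 12341, of which edgeR found 97% and called 12 others. With so few changed genes this could not test the scaling, on which the calls of TGFB1 and GDF15 depended.

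The 10 genes, the pathway lists and the markers were chosen with earlier results of these data known. Named in the text are the 10 genes, KIF11, every tested type I and type II receptor and signal-carrying SMAD, and in each other list the 2 most positive and 2 most negative changes among called genes averaging 1 CPM or more. Other genes are named as chosen afterwards. Positions come from GENCODE 29 and promoters from RefSeq. Protein sequences were not used here. The result of 1 listed gene is not reported here.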

Additional observations from a re-analysis of the deposited data

How the results depend on the processing

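Of the values of the 8 tested members and KIF11 under the alternatives, 124 of 134 kept both their direction and their side of the threshold, and no direction reversed. All 10 exceptions were genes that became called. TGFB1 was called with upper-quartile factors (0.15), library totals alone (0.30), log2(FPKM + 1) (0.32) and log2(FPKM + 0.1) (0.33), and GDF15 in the same settings at 0.15, 0.30, 0.27 and 0.27. These settings moved the median of all tested genes to 0.08, 0.24, 0.12 and 0.17. TGFB3 was called on log2(FPKM + 0.1) (0.48) and without sh-ctrl replicate 1, with a range of 0.17 to 0.88 as each library was left out. BMP2 ranged from 1.24 to 2.34 as each library was left out. The number of members called was 5, became 8 on log2(FPKM + 0.1) and 3 when at least a 2-fold change was also required, and lay between 5 and 6 as each library was left out. It also rose with upper-quartile factors, library totals alone and log2(FPKM + 1), where TGFB1 and GDF15 became called. With a filter of 10 counts in all libraries it fell, since BMP2 was not tested there. The replicate block gave 5 members and 8607 genes called, against 8548 without it, and changed no member's call. Libraries sharing a number did not deviate together (r = 0.03, -0.02 and -0.003). The genes called split into 4254 higher and 4294 lower, but 5014 and 3563 with upper-quartile factors, 6621 and 2373 with library totals alone, and 5635 and 2596 on log2(FPKM + 1). Among the other pathway genes named, 536 of 553 values kept their direction and side. As each library was left out, BMPR1A ranged from -0.018 to 0.13, reversed without sh-ctrl replicate 2, and SMAD2 from -0.0094 to 0.11, reversed without sh-ctrl replicate 1. ACVR1B turned to 0.098 with library totals alone, 0.060 on log2(FPKM + 1) and 0.072 on log2(FPKM + 0.1). The count of pathway genes called was 58, and 56 with a mean of at least 1 CPM, a limit chosen after seeing the data. Counting only genes that passed the filter in both groups, also chosen afterwards, gave 4 members and 54 pathway genes. Depth limits TGFB2, TGFB3, INHBA and BMP2, each at 32 counts or fewer per library. The causes of these shifts were not tested.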

Other observations

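GDF15 and INHBE are both known as genes that stress can switch on through the transcription factors ATF4 and CHOP, and 12 known targets of those factors were listed for that reason. Of these, 11 were tested, 5 called higher and 4 lower, with a median log2 fold change of 0.08. SLC7A11, a cystine transporter, rose from 44.0, 38.4 and 46.3 CPM to 75.3, 82.6 and 86.9 CPM (log2 fold change 0.93, SE 0.07, edgeR adjusted p = 8.61e-16), and SESN2, a stress-induced regulator of mTORC1, rose by 0.86 (SE 0.06, edgeR adjusted p = 1.09e-16). DDIT4, another inhibitor of mTORC1 signalling, fell by 1.13 on the log2 scale (SE 0.06, edgeR adjusted p = 7.74e-21), and TRIB3, a pseudokinase induced by CHOP, fell by 1.03 (SE 0.05, edgeR adjusted p = 8.88e-21). DDIT3, which encodes CHOP and was named after its values were seen, was at 10.5 CPM in sh-ctrl and 9.16 CPM in sh-KIF11 and was not called (edgeR adjusted p = 0.135). Over all tested genes 34.4% were called higher and 34.7% lower. The part of ATF4 and CHOP in the levels of GDF15 and INHBE was not tested.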
